A study of Saccharomyces cerevisiae and Saccharomyces paradoxus and Saccharomyces mikatae with 10 samples.

Results

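The genes described here are the nuclear genes of the yeast respiratory chain and of the ATP synthase, taken complex by complex from a list of 35 systematic names. Of the 35, 30 have values in the table of 4325 genes: all 3 NADH dehydrogenase genes, both succinate dehydrogenase genes, 7 of 10 genes of complex III and cytochrome c, all 8 genes of complex IV, and 10 of 12 genes of the ATP synthase. QCR9, QCR10, COR1, ATP1 and ATP17 are not analysed here. All 30 passed the filter on low values (an average over the strains of 1 or more).

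Polyadenylated RNA was sequenced from 9 natural strains, with no treatment and no engineered allele named in the labels. Saccharomyces cerevisiae, baker's yeast, is represented by 6 strains: YPS606 and DBVPG1788 from the wild, DBVPG6040 from fruit juice, Y9 from a distillery, BC187 from wine and YJM145, labelled clinical. Its wild relatives are N17 and N44 of S. paradoxus and IFO1815 of S. mikatae. Every strain was grown at 30 °C in a medium modelled on oak exudate, with sucrose at 1% and fructose and glucose at 0.5% each, for a 24 h preculture and then from an optical density of 0.1 to 0.5. Each strain contributes 1 column of values, so a value of a single strain has no error of its own and the strains serve as the replicates of a species or an environment. The S. mikatae column is incomplete, with 423 genes listed at 0.

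The respiratory chain of the inner mitochondrial membrane passes electrons from NADH and succinate through ubiquinone, complex III and cytochrome c to complex IV, which reduces oxygen. The proton gradient built by complexes III and IV drives the ATP synthase. Saccharomyces has no proton-pumping complex I. Its NADH enters through single-polypeptide dehydrogenases on either face of the membrane. These yeasts ferment while sugar is plentiful, and glucose represses the nuclear genes of the chain. The Hap complex, which binds CCAAT boxes and whose Hap4 subunit carries the activation function, raises many of them when glucose falls.

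Most of the genes shared a split between the pair of S. paradoxus strains. All 30 genes were lower in N44 than in N17, against 52.3% of all 4239 genes tested, and 20 of the 30 were at least 2-fold lower, against 7.88% of all genes. Among S. cerevisiae strains the differences were smaller. For most genes BC187 lay below and DBVPG6040 above the median of the other strains, though which strain was highest depended on the scaling. Wild and non-wild strains were not told apart. On the values as deposited, 1 gene, NDE2, separated S. cerevisiae from the other species in the tests.

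Of the 30 genes, 12 (40%) hold the sequence ACCAATNA within 500 bases before the start codon, on either strand, against 8.94% of 4204 genes searched in the R64 reference genome of S. cerevisiae. The shorter core CCAAT, which every match of the longer motif contains, is in 26 of the 30 (86.7%) and in 63.1% of all genes searched. A group of 15 of the 30 genes had values above all 6 S. cerevisiae strains in N17 and below all 6 in N44, and the longer motif is present upstream of 7 of these 15 and of 5 of the other 15. NDE2, CYT1, CYC1 and COX4 have no CCAAT in this window. The stretches around the motif are shown for 6 of those 7 genes, read 5′ to 3′ on the strand of the gene, with the motif in capitals and coordinates of the R64 build. NDE1, the remaining gene, has its matches 103 and 10 bases before the start codon and is not shown. The reference strain is none of the 9 strains measured, and a match describes letters, not binding.
RIP1 (chrV:106972-107059, plus strand): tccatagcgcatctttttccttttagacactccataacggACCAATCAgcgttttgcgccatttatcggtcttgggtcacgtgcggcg
QCR7 (chrIV:1496683-1496770, minus strand): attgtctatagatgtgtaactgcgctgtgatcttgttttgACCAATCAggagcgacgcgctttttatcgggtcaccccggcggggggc
COX12 (chrXII:225331-225418, minus strand): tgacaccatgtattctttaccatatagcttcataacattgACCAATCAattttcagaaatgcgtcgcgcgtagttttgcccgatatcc
COX13 (chrVII:144555-144642, plus strand): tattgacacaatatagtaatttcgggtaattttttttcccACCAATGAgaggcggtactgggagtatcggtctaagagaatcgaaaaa
ATP14 (chrXII:722524-722611, minus strand): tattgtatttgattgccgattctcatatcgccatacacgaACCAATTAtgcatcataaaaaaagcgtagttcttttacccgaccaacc
ATP15 (chrXVI:29905-29992, plus strand): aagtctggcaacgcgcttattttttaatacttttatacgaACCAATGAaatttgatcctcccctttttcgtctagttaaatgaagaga
The 6 motifs differ in the free position and in their surroundings. RIP1, QCR7 and COX12 carry ACCAATCA, COX13 and ATP15 carry ACCAATGA, and ATP14 carries ACCAATTA.

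N17 stood at the top and N44 and IFO1815 at the bottom for complex III, complex IV and the ATP synthase. The level of a complex is the median over its genes of log2(value + 1), where the values are treated as RPKM, a read count divided by the length of the gene and the size of the library, and genes listed at 0 in a strain are left out. For complex IV it was 8.33 ± 0.24 over the S. cerevisiae strains (SD, n = 6), 8.89 in N17, 7.81 in N44 and 7.17 in IFO1815. For complex III and cytochrome c it was 8.39 ± 0.27 (SD, n = 6) in S. cerevisiae, 9.08 in N17, 7.65 in N44 and 7.89 in IFO1815. For the ATP synthase it was 8.52 ± 0.32 (SD, n = 6), 9.10 in N17, 7.93 in N44 and 7.47 in IFO1815. In these 3 groups N17 lay above and N44 and IFO1815 lay at or below the lowest S. cerevisiae strain, although IFO1815 and BC187 were level at 7.89 for complex III and cytochrome c. Succinate dehydrogenase, which feeds electrons from the citric acid cycle into the chain, reached 8.25 in both N17 and DBVPG6040, with 7.75 ± 0.32 (SD, n = 6) over S. cerevisiae, 6.78 in N44 and 6.42 in IFO1815. The NADH dehydrogenases departed from this order, with 7.2 ± 0.28 (SD, n = 6) in S. cerevisiae, 6.91 in N17, 6.19 in N44 and 6.50 in IFO1815, so that N17 was inside the range of S. cerevisiae. Each culture was measured in bulk, so fewer cells carrying a transcript and less of it per cell cannot be told apart.

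**Figure D1:**
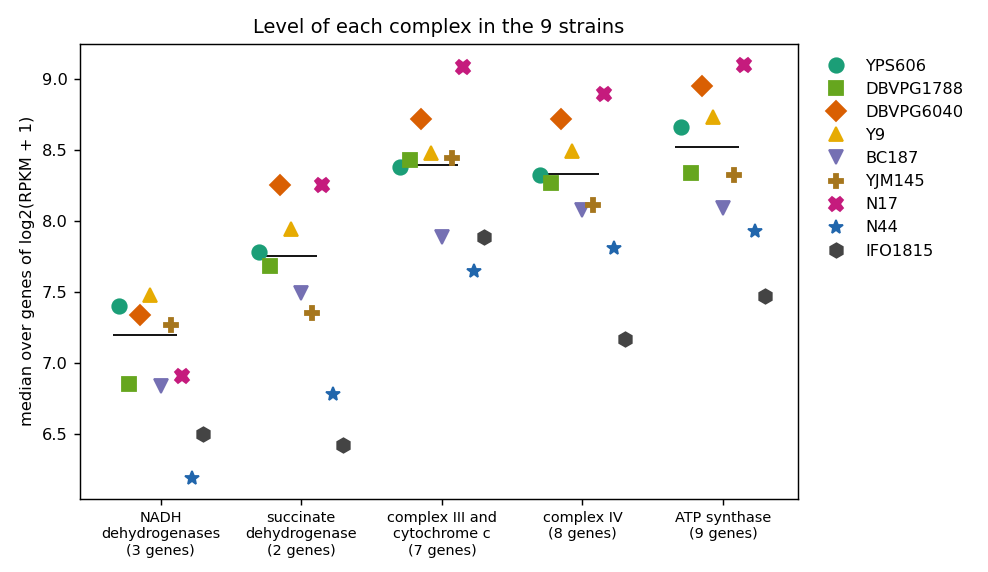
Level of each complex in the 9 strains: the y axis gives the median over genes of log2(RPKM + 1), each symbol is 1 strain, and the black line is the mean of the 6 S. cerevisiae strains. N17 is highest for complex III with cytochrome c (9.08), complex IV (8.89) and the ATP synthase (9.10), while N44 and IFO1815 take the lowest places in every group, apart from a tie of IFO1815 with BC187 at 7.89 for complex III with cytochrome c.

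Within S. cerevisiae, DBVPG6040 and Y9 tended high and BC187 and YJM145 low on the values as deposited, and the order changed with the scaling. DBVPG6040 from fruit juice was above the median of the other 5 strains for 28 of 30 genes (68.6% of all genes), by a median of 0.48 on the log2 scale against 0.19 over all genes, and was the highest of the 6 for 21 genes (37.0% of all genes). BC187 from wine was below the median of the others for 28 of 30 genes (56.0%), by a median of -0.36 against -0.05, and was the lowest of the 6 for 15 genes (14.0%). Y9 from a distillery was above for 25 genes (53.6%), by 0.25 against 0.03, and highest for 7 (18.7%). YJM145 was below for 24 genes (56.5%), by -0.22 against -0.05, and lowest for 9 (18.9%). The wild strains had medians of 0.14 in YPS606 and -0.16 in DBVPG1788, against -0.18 and 0.11 over all genes. With the values of each strain centred on their median, the medians became 0.28 in DBVPG6040, 0.22 in Y9, -0.37 in BC187, -0.19 in YJM145, 0.34 in YPS606 and -0.34 in DBVPG1788. YPS606 was then as high as DBVPG6040, and DBVPG1788 about as low as BC187. With the trend on length and GC taken out, these wild strains stood at 0.31 and -0.40, DBVPG6040 at 0.28 and BC187 at -0.46. With quantile normalisation DBVPG6040 stayed highest at 0.46 and BC187 lowest at -0.47, with YPS606 at 0.21 and DBVPG1788 at -0.16. The genes did not spread more than others, with a median SD of log2(value + 1) over the 6 strains of 0.31 for the 30 genes and 0.29 for all genes.

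The DBVPG6040 excess was spread over complexes rather than lying in 1 of them. Its median difference was 0.56 for succinate dehydrogenase, 0.48 for complex III and cytochrome c, 0.45 for complex IV, 0.53 for the ATP synthase and 0.13 for the NADH dehydrogenases. In this strain the genes of chromosomes I and XI had median differences of 0.78 and 0.74, against 0.09 to 0.22 on the other chromosomes, and none of the 30 genes lies on either. The BC187 deficit was -0.48 for the ATP synthase, -0.36 for complex III and cytochrome c and -0.31 for complex IV. Y9 was above the median of the others for all 10 ATP synthase genes and all 8 complex IV genes, but for 3 of 7 genes of complex III and cytochrome c. After centring, DBVPG6040 was the highest strain for 13 genes in place of 21, and it remained above the median of the others for 26. The shares of all genes after centring are not given here.

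**Figure D2:**
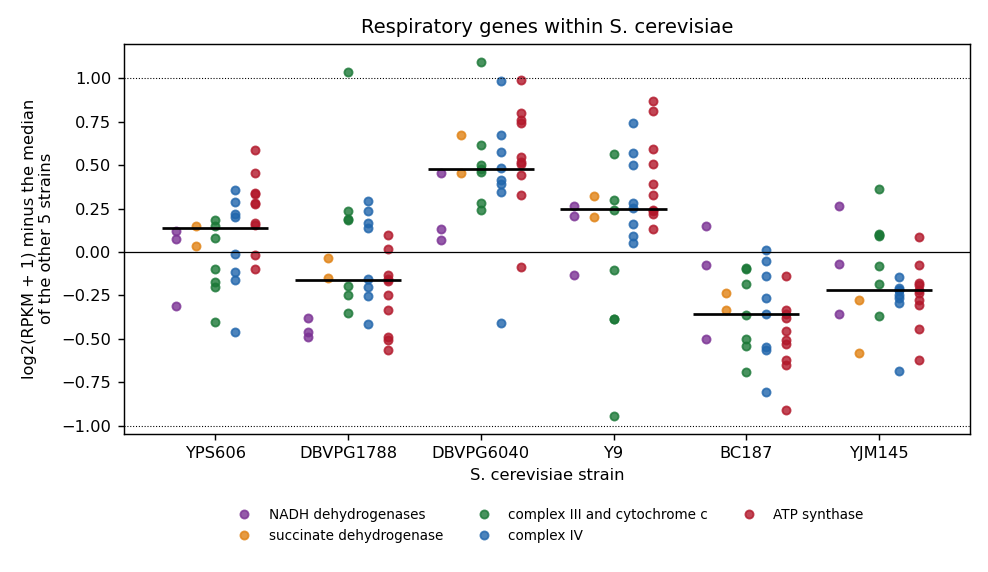
Each point is 1 of the 30 genes in 1 S. cerevisiae strain, coloured by complex; the y axis is its log2(RPKM + 1) minus the median of the other 5 strains, the black bar is the median over the 30 genes, and dotted lines mark 2-fold. The bars lie at 0.48 in DBVPG6040 and at -0.36 in BC187, and the points past 2-fold are QCR6 in DBVPG1788 and CYC1 in DBVPG6040.

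Within S. cerevisiae only QCR6 and CYC1 passed 2-fold, each in 1 strain, and such counts are close to the shares over all genes. Neither stayed past 2-fold with median centring or with the trend on length and GC removed. QCR6 (YFR033C), a small acidic subunit of complex III, had the widest range, from 126 in Y9 to a median of 216 and 389 in DBVPG1788. It was 1 of 30 genes at least 2-fold above the other strains in DBVPG1788 (1.51% of all genes), and no other gene of complex III followed it there past 2-fold. CYC1 (YJR048W), which encodes the main isoform of cytochrome c, ranged from 367 in Y9 over a median of 463 to 958 in DBVPG6040. The other 5 strains lay close together below it, and CYC1 was the only one of the 30 genes at least 2-fold higher in DBVPG6040 (3.85% of all genes). N17, at 892, also stood high for CYC1, while N44 at 456 and IFO1815 at 386 lay within the S. cerevisiae range. QCR6 in the other species was 344 in N17, 111 in N44 and 112 in IFO1815, so that N44 and IFO1815 lay just under the lowest S. cerevisiae strain.

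**Figure D3:**
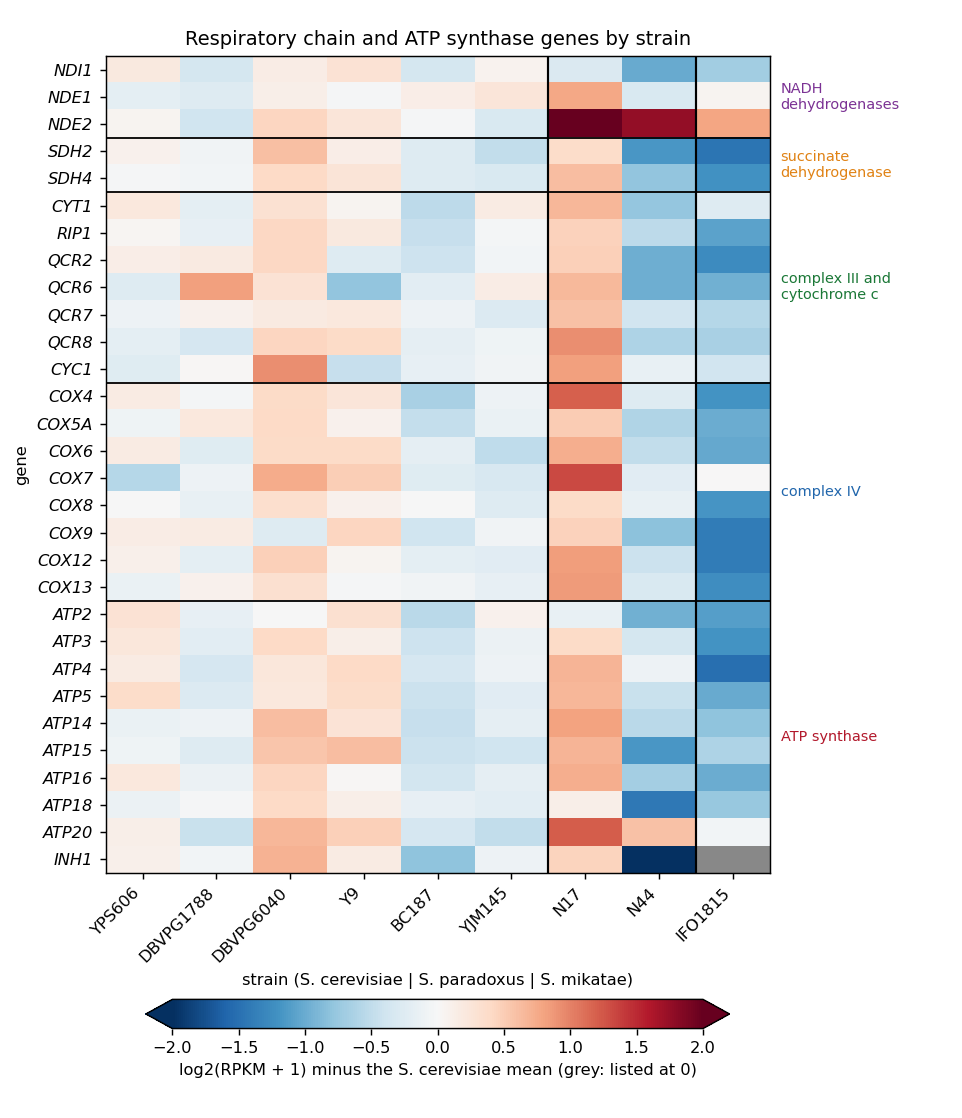
Heat map of the 30 genes (rows, grouped by complex) in the 9 strains (columns); colour gives log2(RPKM + 1) minus the mean of the 6 S. cerevisiae strains, and grey marks INH1, listed at 0 in IFO1815. The N17 column is red except for NDI1 and ATP2, the N44 column is blue except for NDE2 and ATP20, and the S. cerevisiae columns are paler.

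On the values as deposited, N17 lay above the S. cerevisiae median for 28 of 30 genes, against 71.5% of all genes. N44 lay below that median for 28 of 30, while 69.8% of all genes lay above it there. N17 was above all 6 S. cerevisiae strains for 22 genes (46.0% of all genes), and N44 was below all 6 for 21 (12.8%). Both held for 15 genes, against 2.12% of all genes: NDE1, SDH4, CYT1, RIP1, QCR2, QCR7, QCR8, COX5A, COX9, COX12, COX13, ATP5, ATP14, ATP15 and ATP16. These come from every complex, and N17 exceeded N44 by a median of 2.38-fold over all 30 genes, from 1.45-fold for COX8 to 6.32-fold for INH1. N17 was at least 2-fold above the S. cerevisiae median for 5 genes (17.2% of all genes), namely NDE2, QCR8, COX4, COX7 and ATP20. N44 was at least 2-fold below it for another 5 (3.14%), namely NDI1, SDH2, QCR2, ATP18 and INH1, and above it for 1, NDE2 (12.7%).

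How far each S. paradoxus strain lay from S. cerevisiae depended on the scaling, and the gap between them did so less. The median difference of the 30 genes was 0.67 in N17 and -0.47 in N44, with 0.34 and 0.31 over all genes. With median centring these became 0.31 and -0.85, and after a trend on length and GC was taken out of every strain they became 0.14 and -0.76. The count of genes above S. cerevisiae in N17 and below it in N44 fell from 15 to 9 with centring, to 9 with quantile normalisation and to 3 with the trend removed. N44 minus N17 had a median of -1.24 (all genes -0.03), of -1.20 with centring, of -1.07 with quantile normalisation and of -0.91 with the trend removed, and all 30 genes were lower in N44 under each of them. The count at least 2-fold lower was 12 with the trend removed, in place of 20. The shares of all genes under these scalings are not given here, so the rescaled counts cannot be set against other genes.

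Gene length moved with this gap and its part in it was not tested beyond these values. Among genes of at most 500 bp, the 18 respiratory genes had a median of -1.32 for N44 minus N17 and the 437 other genes one of -0.38. Among longer genes the median was -1.03 for 12 respiratory genes and 0.00 for 3737 others. Both length classes of respiratory genes thus lay lower than the other genes of their class. Among genes whose average over the strains was 100 or more, the medians were -1.27 for 29 respiratory genes and -0.04 for 811 others.

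**Figure D4:**
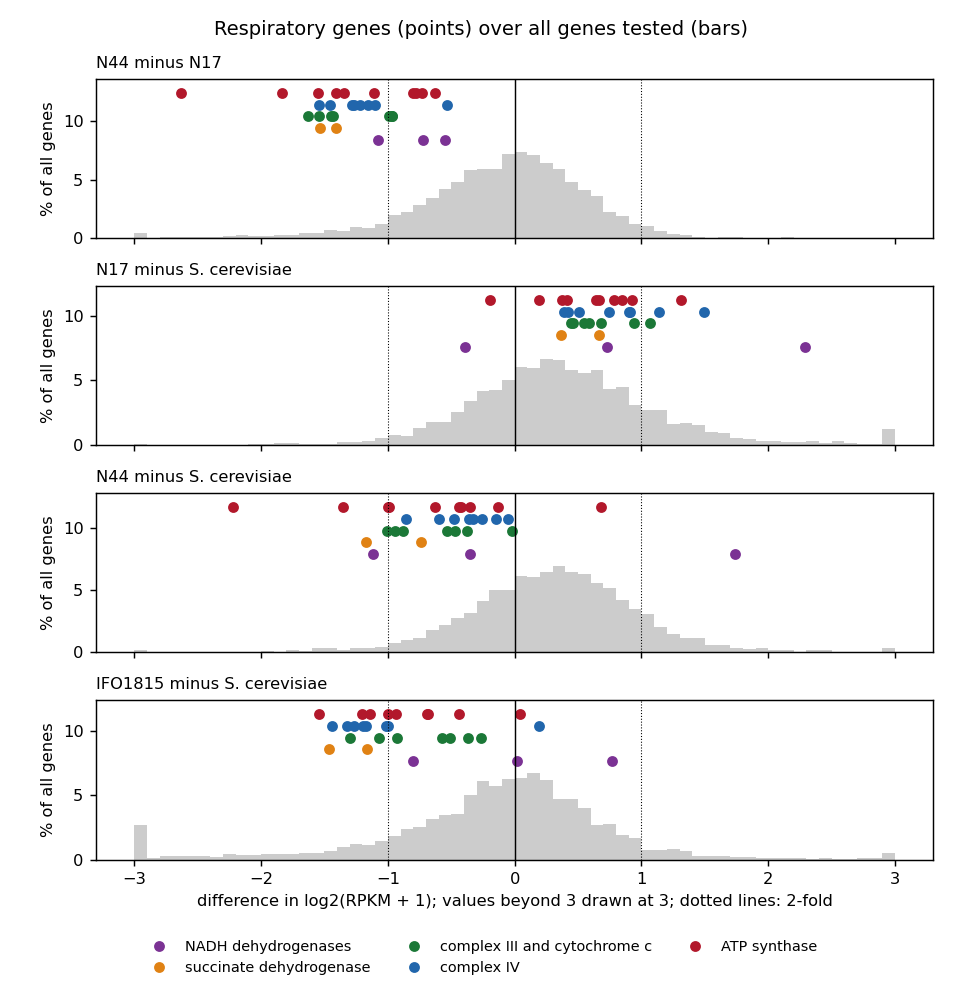
Points are the respiratory genes, coloured by complex, and grey bars give the percentage of all genes tested in each step of log2 difference, for N44 minus N17 and for N17, N44 and IFO1815 minus the S. cerevisiae median; dotted lines mark 2-fold. The 30 points for N44 minus N17 all lie below 0 with a median of -1.24, while the bars centre on -0.03.

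IFO1815 was low for most of the genes, on a column that holds many zeros. Of 29 genes above 0, 25 were below the S. cerevisiae median, and 13 were at least 2-fold lower (12.9% of 3822 genes above 0 in IFO1815): SDH2, SDH4, RIP1, QCR2, COX4, COX6, COX8, COX9, COX12, COX13, ATP2, ATP3 and ATP4. The median was -1.0 against -0.04 over all genes. By complex it was -1.31 for succinate dehydrogenase, -1.19 for complex IV, -0.93 for the ATP synthase, -0.57 for complex III and cytochrome c and 0.02 for the NADH dehydrogenases. IFO1815 was below all 6 S. cerevisiae strains for 24 of 30 genes, INH1 at 0 included, against 39.0% of all genes. On the 7 chromosomes that hold no more than 1 zero in this column, the median was -0.69 for 7 respiratory genes and 0.03 for all genes. On the other 9 chromosomes it was -1.11 for 22 respiratory genes and -0.12 for all genes, and 12 of the 13 genes at least 2-fold lower lie there. On the 7 chromosomes nearly free of zeros, 1 of 7 was at least 2-fold lower and 5 were below the S. cerevisiae median.

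On the values as deposited, the NADH dehydrogenases held the single gene that passed a test between species. With the trend on length and GC removed, COX8 and ATP18 passed as well, and the share of all genes called under that setting is not given here. On the values as deposited neither was called. There ATP18 was higher in S. cerevisiae, by 0.66 against S. paradoxus and by 0.69 against the other species. COX8 differed by -0.12 and 0.32 in these comparisons. With a filter on a mean of at least 10, NDE2 was not tested and no gene passed. NDE2 (YDL085W) encodes an external NADH dehydrogenase, the paralog of the one encoded by NDE1, and it was the lowest of the 30 genes in S. cerevisiae. Its values were 2.94 in DBVPG1788, 3.23 in YJM145, 4.14 in BC187, 4.42 in YPS606, 5.18 in Y9 and 6.04 in DBVPG6040. In the other species it was 24.8 in N17, 16.6 in N44 and 7.99 in IFO1815. All 3 of these lay above every S. cerevisiae strain. Against both S. paradoxus strains NDE2 was lower in S. cerevisiae by 2.03 on the log2 scale (SE 0.27, limma adjusted p = 0.00122 over 4239 genes), with a mean of 4.32 ± 1.17 (SD, n = 6) and 20.7 ± 5.81 (SD, n = 2). Against all 3 strains of the other species the difference was -1.62 (SE 0.35, limma adjusted p = 0.0295). This second call was lost when any 1 of YPS606, DBVPG1788, Y9, BC187, YJM145, N17 or N44 was dropped, as limma adjusted p then lay between 0.0535 and 0.0900, whereas the first held without each strain, where limma adjusted p lay between 0.00102 and 0.0217.

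The remaining NADH dehydrogenases did not follow NDE2. NDE1 (YMR145C), the external enzyme with the more abundant transcript, ranged from 316 to 450.2 in S. cerevisiae around a median of 392, and was 649 in N17, 307 in N44 and 396 in IFO1815. NDI1 (YML120C), which oxidises NADH on the matrix side, ranged from 114 in BC187 to 178 in Y9 with a median of 157, and was 119.6 in N17, 71.9 in N44 and 89.6 in IFO1815. NDI1 and ATP2 were the genes of the 30 for which all 3 strains of the other species lay below the S. cerevisiae median, although N17 was within the S. cerevisiae range for both. NDI1 was 0.65 higher in S. cerevisiae than in S. paradoxus on the log2 scale (SE 0.26, limma adjusted p = 0.0990) and passed the threshold only with median centring (0.96, limma adjusted p = 0.0421) or quantile normalisation (0.88, limma adjusted p = 0.0491). Whether reads were kept apart between the paralogs NDE1 and NDE2 is not given in the sources used here.

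**Figure D5:**
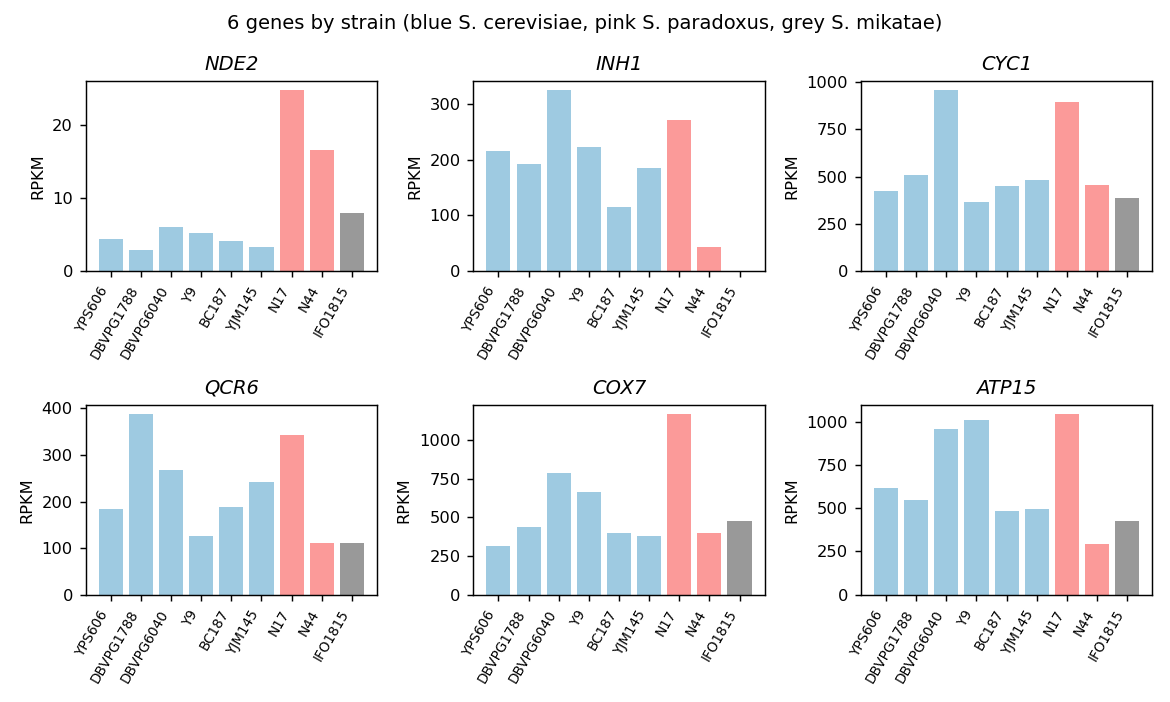
Bars give the RPKM of 6 genes in the 9 strains, each on its own axis from 0; blue is S. cerevisiae, pink S. paradoxus and grey S. mikatae. NDE2 is high in N17 (24.8) and N44 (16.6), INH1 is low in N44 (43.0) and listed at 0 in IFO1815, CYC1 peaks in DBVPG6040 (958), and QCR6 peaks in DBVPG1788 (389).

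Both succinate dehydrogenase genes of the list were low in N44 and IFO1815. SDH2 (YLL041C), its iron-sulphur subunit, ranged from 125 in YJM145 to 269 in DBVPG6040 around a median of 178, and was 228 in N17, 78.3 in N44 and 63.7 in IFO1815. SDH4 (YDR178W), a membrane anchor, ranged from 211 in YJM145 to 341 in DBVPG6040 around a median of 252, and was 401 in N17, 151 in N44 and 112 in IFO1815. For SDH2 and SDH4, N44 and IFO1815 lay under every S. cerevisiae strain. SDH4 was higher in N17 than in all of them, and SDH2 was not. SDH3 (YKL141W), a further subunit gene outside the list, was 549 in N17, 241 in N44 and 127 in IFO1815. Its S. cerevisiae range was 167 to 423, so N44 lay inside it and IFO1815 below it.

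In complex III, QCR2 (YPR191W), a core subunit, was high in N17 and low in N44 and IFO1815. It ranged from 228 in BC187 to 407 in DBVPG6040 around a median of 312, and was 423 in N17, 155 in N44 and 126 in IFO1815. RIP1 (YEL024W), the Rieske iron-sulphur protein, was 314 in N17 and 158 in N44 around an S. cerevisiae range of 166 to 305. CYT1 (YOR065W), cytochrome c1, was 539 in N17 and 199 in N44 around a range of 236 to 419.6. For QCR2, RIP1 and CYT1 alike, N17 lay above and N44 below the whole range of S. cerevisiae. QCR7 (YDR529C) and QCR8 (YJL166W), small subunits of the complex, did the same, at 898 and 707 in N17 and at 459 and 242 in N44.

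All 8 genes of complex IV were above the S. cerevisiae median in N17, with a median difference of 0.82. COX7 (YMR256C), a small subunit, ranged from 316 in YPS606 to 786 in DBVPG6040 around a median of 416, and was 1169.6 in N17, 399.6 in N44 and 473 in IFO1815. N44 and IFO1815 lay inside the S. cerevisiae range for COX7. IFO1815 lay below that range for every other gene of the complex, and N44 lay below it for COX5A, COX9, COX12 and COX13. COX6 (YHR051W) ranged from 199 in YJM145 to 372 in DBVPG6040 around a median of 285, and was 473 in N17, 203 in N44 and 139 in IFO1815. COX9 (YDL067C) ranged from 119 in BC187 to 213 in Y9 around a median of 163, and was 218 in N17, 88.9 in N44 and 59.1 in IFO1815. COX9 was the gene of complex IV that was not raised in DBVPG6040, where it was 132. The other genes of the complex, COX4, COX5A, COX8, COX12 and COX13, all had their highest value of the 9 strains in N17 and their lowest in IFO1815. COX4 (YGL187C) was 383 in N17, 138 in N44 and 71.8 in IFO1815, around an S. cerevisiae range of 106 to 216.

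Most ATP synthase genes showed the order of the chain, with N17 high and N44 and IFO1815 low. ATP2 (YJR121W), the catalytic beta subunit, had the highest mean of the 30 genes in S. cerevisiae, at 912 ± 188 (SD, n = 6). It was 806 in N17, 462 in N44 and 417 in IFO1815, so N17 was within the S. cerevisiae range of 618 to 1121. ATP15 (YPL271W), the epsilon subunit, was 1045 in N17 and 292 in N44, outside the range of 486 to 1007 on either side. ATP16 (YDL004W), the delta subunit, did likewise, at 581 in N17 and 218 in N44 around a range of 271 to 470.5. ATP18 (YML081C-A), a small membrane subunit, was 478 in N17, inside the range of 381 to 579, and 162 in N44, below it.

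ATP20 (YPR020W), which encodes subunit g and supports dimers of the enzyme, was the ATP synthase gene with higher values in both S. paradoxus strains than in the S. cerevisiae median. It ranged from 111 in YJM145 to 249.9 in DBVPG6040 around a median of 149, and was 366 in N17, 236 in N44 and 151 in IFO1815. The groups overlapped because DBVPG6040 exceeded N44, and the difference of -0.89 did not pass (SE 0.35, limma adjusted p = 0.0849). INH1 (YDL181W) encodes the inhibitor protein that holds back ATP hydrolysis when the proton gradient collapses. It ranged from 114 in BC187 to 326 in DBVPG6040 around a median of 204, and was 272 in N17, 43.0 in N44 and listed at 0 in IFO1815. N17 thus lay within the S. cerevisiae range while N44 lay far below it, and the species difference of 0.88 was not called (SE 0.57, limma adjusted p = 0.280). Without N17 it was 2.19 (limma adjusted p = 0.0232), a comparison with N44 alone, which is assumed there to vary like the S. cerevisiae strains.

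In the tests over strains on the values as deposited, NDE2 apart, the genes did not separate the species. In the comparison of S. cerevisiae with the other species, 1 of 30 genes, NDE2, passed at a limma adjusted p under 0.05, against 6.25% of all genes, and 25 of 30 had the sign of higher values in S. cerevisiae, with a median of 0.32 (all genes -0.10). Leaving out N17 made that median 0.79, leaving out N44 made it 0.19, and leaving out IFO1815 made it -0.07. Against S. paradoxus alone 1 of 30, again NDE2, passed, against 24.1% of all genes. It was also the 1 gene of 30 whose groups did not overlap, against 36.0% of all genes. The median against S. paradoxus was -0.07 (all genes -0.32). It was 0.54 without N17 and -0.66 without N44, and with both strains it was 0.25 after centring, 0.29 with the trend on length and GC taken out and 0.02 with quantile normalisation.

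Environment did not separate the genes either. Between the 2 wild and 4 non-wild S. cerevisiae strains, limma called 0 of 30 genes and 0 of 4239 (0.0% of all genes), with 0 of the 30 and 55 of all genes at an unadjusted p under 0.05. The median difference, wild minus non-wild, was -0.06 for the 30 genes and for all genes. Only NDE1 and QCR8 had groups that did not overlap (4.77% of all genes), both lower in the wild strains, by 0.35 (SE 0.21, limma adjusted p = 1.00) and by 0.40 (SE 0.26, limma adjusted p = 1.00). For QCR8 the nearest strains, YPS606 at 325.2 and BC187 at 325.4, are almost equal. Between all 5 wild and 4 non-wild strains, limma called 0 of 30 and 0 of 4239 (0.0%), with 0 of the 30 and 98 of all genes at an unadjusted p under 0.05. The median there was -0.21 for the 30 genes and 0.02 for all genes. For the 30 genes it was 0.02 without IFO1815, -0.41 without N17, -0.11 without N44 and -0.08 without DBVPG6040. This comparison cannot be told apart from species, since every strain of the other species is wild.

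Of the Hap regulators, HAP4 and HAP2 were close in N17 and N44, while HAP3 and HAP5 were higher in N17. HAP4 (YKL109W), the activation subunit of the CCAAT-binding complex, was 244 in N17 and 237 in N44, and 148 in IFO1815. Within S. cerevisiae it ranged from 165 in DBVPG1788 to 460.1 in YJM145, with 423 in DBVPG6040 and 271 in BC187. HAP4 lies on chromosome XI, whose genes had a median difference of 0.74 in DBVPG6040. HAP2 (YGL237C), a DNA-binding subunit, was 43.8 in N17, 39.9 in N44 and 7.42 in IFO1815, with 41.2 to 65.0 in S. cerevisiae. HAP3 (YBL021C) was 23.0 in N17, 15.2 in N44 and listed at 0 in IFO1815, and HAP5 (YOR358W) was 30.4, 16.6 and 29.3 in these strains. In S. cerevisiae HAP3 ranged from 18.7 to 55.9 and HAP5 from 15.2 to 31.1. None of the 4 regulators measured was called in any of the 4 comparisons.

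The wider set of pathway genes, meaning other subunits, the Hap regulators and the assembly and translation factors of the complexes, was called about as often as genes at large. Of 61 such genes with values, 15 were called against S. paradoxus, 1 higher and 14 lower in S. cerevisiae, beside 24.1% of all genes. Of 24 complex IV assembly genes, 8 were lower in S. cerevisiae, beside 21.7% of all genes called in that direction: PET111, PET117, COX10, PET100, COX16, CMC1, COX17 and MSS2. PET111 activates translation of a mitochondrially encoded subunit of complex IV, and COX10 acts in haem A synthesis. COX16 (YJL003W) averaged 86.4 ± 21.8 (SD, n = 2) in S. paradoxus but 23.1 ± 4.18 (SD, n = 6) in S. cerevisiae, a difference of -1.86 (SE 0.23, limma adjusted p = 0.000976). COX17 (YLL009C), the copper chaperone for complex IV, was 141 ± 10.6 (SD, n = 6) and 288 ± 129 (SD, n = 2), a difference of -0.95 (SE 0.25, limma adjusted p = 0.0212).

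For the ATP synthase, 5 of 13 assembly and stabilising genes were lower in S. cerevisiae, beside the same 21.7%: AEP1, ATP10, ATP23, NCA2 and NCA3. ATP10 (YLR393W) was also the 1 of the 61 called against all 3 strains of the other species, by -0.71 (SE 0.18, limma adjusted p = 0.0492), beside 4.81% of all genes called lower in S. cerevisiae there. NCA3 differed most, with 22.9 ± 6.92 (SD, n = 6) in S. cerevisiae, but its S. paradoxus values lay at 38.9 and 445. CYC7 (YEL039C) encodes the minor isoform of cytochrome c. It was lower in S. cerevisiae than in S. paradoxus by 2.00 on the log2 scale (SE 0.61, limma adjusted p = 0.0374), while CYC1 was not called. Against all 3 strains of the other species the CYC7 difference was 0.02 and not called. IFO1815 lay at 2.11 for CYC7, under the S. cerevisiae range of 24.3 to 147. TCM62 (YBR044C), a succinate dehydrogenase assembly factor, was the 1 gene called higher in S. cerevisiae than in S. paradoxus, by 0.62 (SE 0.19, limma adjusted p = 0.0347). In both comparisons of environments, 0 of the 61 were called.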

How the data were processed

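Polyadenylated RNA of 9 strains was sequenced from 10 libraries with random-hexamer priming, inserts of about 250 bp and 15 PCR cycles, per the labels' protocols. The 2 libraries of YPS606 are joined in 1 column. Per the submitters' processing notes, cutadapt, TopHat, Cufflinks and the R64 build were used, with no roles or versions given.

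The deposited values are treated as RPKM. No label or file header names the unit, which was inferred from the S. cerevisiae columns. There, low values multiplied by gene length (products up to 1 kb) were whole multiples of 1 step for 93.1% to 96.5% of values (tolerance 0.05). The step implies totals of 57.9 M to 72.4 M (M for mega), and 153.1 M for YPS606. The depth of N17, N44 and IFO1815 is unknown. How the authors assigned reads of S. paradoxus and S. mikatae to S. cerevisiae gene names is not given in the sources used here, and these columns may carry mapping differences. No batch or date is labelled, so no batch could be examined.

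Genes with values in all strains (4260) and a mean of at least 1 (4239) were fitted with limma 3.58.1 (R 4.3.3, eBayes with trend) on log2(value + 1), two-sided, with Benjamini-Hochberg adjustment over all genes and a threshold of 0.05. Differences are on this scale, which understates changes of low genes. The 4 comparisons were S. cerevisiae against the other species, S. cerevisiae against S. paradoxus, and wild against non-wild strains within S. cerevisiae and over all species. P-values test a difference between group means against the spread between strains, moderated over all genes, and not against repeat measurements of a strain. Single-strain differences have no test and were counted at 2-fold: each S. cerevisiae strain against the median of the other 5, and N17, N44 and IFO1815 against the median of the 6. Of the 4325 gene names, 4284 matched R64, which gave symbols, lengths and sequences. The fit was tested on simulated data.

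Values across the strains (for S. cerevisiae the lowest, median and highest) are given for members called in a comparison. They are also given, per complex, for the 2 genes with the highest SD over S. cerevisiae and for those with the highest and the lowest difference from S. paradoxus. Other pathway genes are named where called, with group means for some, and the Hap regulators always. Further genes were named after their values were seen. The members, lists and tests were chosen with earlier results of these data known. Alternatives were the pseudocount (0.1), filters on the mean (none, 10), quantile normalisation, median centring, removal of each strain's GC and length trend, zeros set to missing, eBayes without trend, a 1.5-fold limit, and leaving out each strain. The restriction of IFO1815 to chromosomes with at most 1 zero, the order counts under other scalings and the length and level classes were chosen after seeing the data.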

Additional observations from a re-analysis of the deposited data

Results flagged for a closer look

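CYC1 in DBVPG6040 stood apart from the other S. cerevisiae strains: its log2(value + 1) was 9.90, while the other 5 strains lay between 8.52 and 9.0. It was the 1 case among 105 sets of strain values examined, where 5.25 would be expected by chance at 1 in 20. CYC1 lies on chromosome X, whose genes had a median difference of 0.17 in DBVPG6040.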

How the results depend on the processing

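Over 415 pairs of a result and an alternative setting, covering 49 results, 354 stayed on their side of the threshold, within the spread between strains, or within 1.5 times for counts. Another 7 lost their call, 4 gained one and 50 moved. No called value changed sign, but 20 values that were not called did: 10 medians over the 30 genes and 10 differences of single genes. With a filter on a mean of at least 10, 0 genes were called in either species comparison, because NDE2 is no longer tested. With the GC and length trend removed, 3 genes (COX8, NDE2 and ATP18) were called in both. With quantile normalisation and with median centring, 2 genes (NDI1 and NDE2) were called against S. paradoxus. For these settings and for leaving out strains, the share of all genes called is not given here. The counts called therefore have no background to be read against. Leaving out each strain gave from 0 to 3 genes called against the other species and from 1 to 3 against S. paradoxus, in both cases 3 without N17. The median over the 30 genes against S. paradoxus then ranged from -0.66 to 0.54, against the other species from -0.07 to 0.79, between wild and non-wild S. cerevisiae from -0.18 to 0.07 and over all strains from -0.41 to 0.02.

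With a limit of 1.5-fold, the genes higher were 1 in YPS606, 9 in DBVPG6040, 4 in Y9, 18 in N17, 2 in N44 and 1 in IFO1815, and the genes lower were 1 in Y9, 5 in BC187, 2 in YJM145, 13 in N44 and 20 in IFO1815. At 2-fold, median centring and the trend removal each left 0 genes higher in DBVPG1788 and 0 in DBVPG6040. N17 then had 3 genes higher with quantile normalisation, 2 with centring and 1 with the trend removed. N44 had 8 lower with quantile normalisation and 11 with centring. IFO1815 had 7 lower and 1 higher with quantile normalisation, and 8 lower with the trend removed. BC187 had 1 lower with the trend removed, and N44 minus N17 had 12. N17 was above all S. cerevisiae strains for 12 genes with centring and 5 with the trend removed, and N17 above with N44 below held for 9 with quantile normalisation, 9 with centring and 3 with the trend removed. DBVPG6040 was highest for 13 genes with centring and 11 with the trend removed. On the chromosomes with at most 1 zero the IFO1815 median was -0.69. The causes of these moves were not tested, and the shares of all genes under these settings are not given here.

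The depth of 3 of the 9 columns is unknown, and 1 column a strain gives no error for a single strain. No paired analysis was possible because each strain has 1 column and no label pairs the strains. The replicate numbers used here are names in accession order that pair nothing.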
